A study of Salmo salar with 45 samples.

Results

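The genes ezra (ENSSSAG00000101499) and slc9a3r1 (ENSSSAG00000000177) are 2 of the 69389 genes counted by RNA sequencing in the distal intestine of 45 Atlantic salmon (Salmo salar). They were picked by identifier as genes of microvillus linker proteins whose levels were lower in fish fed heat-killed Lactiplantibacillus plantarum L-137 (HK L-137) than in fish fed the control diet. That difference was read from these same libraries, so it chose the genes and is given below as a description without a test. Each of the 5 diets had 9 fish. The MG diet, used as the positive control of the trial, held β-glucan at 2 g per kg feed. The CD diet was the control feed with no additive. The LP20, LP100 and LP500 diets held HK L-137, in the form of the product Feed LP20™, at 20, 100 and 500 mg per kg of feed. All fish were kept in fresh water and fed for 61 days, and each diet was given to 3 tanks. The labels do not tie a fish to its tank, so the p-values below treat each fish as a replicate, although fish of the same tank share their water and feed. Single fish are named by diet and a number that only tells them apart.

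Ezrin is the founding member of the ezrin, radixin and moesin (ERM) family. In mammals its amino-terminal FERM domain sits under the plasma membrane and its carboxy-terminal end binds filamentous actin, so that it ties the membrane of a microvillus to the actin bundle inside. The protein is folded closed in the cytoplasm and opens when it meets a membrane phosphoinositide and is phosphorylated near its end by the kinases LOK and SLK. The slc9a3r1 product, known as NHERF1 or EBP50, is a scaffold with PDZ domains that grip the tails of membrane proteins such as the sodium and proton exchanger NHE3 and the chloride channel CFTR, and its own tail binds the FERM domain of ezrin. In the mammalian intestine both proteins are found in the brush border, the layer of microvilli through which enterocytes absorb nutrients. The salmon genome keeps pairs of many genes from an ancient duplication. Letters such as a and b at the end of a symbol tell apart genes of the same base name. Which duplication parted such genes was not looked at.

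In the assembly Ssal_v3.1 ezra lay on the plus strand of chromosome 9, from 50025061 to 50047716, with an exon length of 3447 bases in 16 separate blocks. slc9a3r1 lay on the plus strand of chromosome 1, from 81266063 to 81312225, with 2476 exon bases in 6 blocks. The Ensembl and RefSeq intervals had 1.0 of their joint span in common for slc9a3r1 and 0.735 for ezra. Both genes had exons in common with a gene on the other strand, which is taken up after the levels.

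Fragments counted on genes came to between 9660750 and 22377591 per fish (median 14634308). ezra had between 5902 and 16016 fragments in a fish and slc9a3r1 between 1577 and 6386, so that counting error was at most 1.3% and 2.52% of a value, well under the spread between fish. No fish was left out. Levels are given as CPM, the count scaled to a common library size by the TMM method. In CD fish ezra ranked 115th and slc9a3r1 427th by mean CPM among the 31729 genes tested.

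The mean level of ezra was highest in CD and lower in all 4 other diets. MG fish had between 554.2 and 827.0 CPM (median 737.0), LP20 fish between 557.4 and 765.1 CPM (median 607.8), LP100 fish between 547.3 and 844.9 CPM (median 616.2) and LP500 fish between 510.8 and 825.0 CPM (median 652.7), against 584.1 to 993.0 CPM in CD fish (median 769.7). The ranges of all 5 diets overlapped. The means were 713.5 ± 93.4 CPM in MG, 633.5 ± 66.9 in LP20, 627.8 ± 93.8 in LP100, 670.0 ± 106.8 in LP500 and 782.7 ± 120.3 in CD (SD, n = 9 each). Read from high to low, the order was CD, MG, LP500, LP20 and LP100, and it did not follow the inclusion level. As a description, the fitted level was 19.1% lower than in CD in LP20 (log2 fold −0.31 ± 0.10, SE), 19.8% lower in LP100 (−0.32 ± 0.10) and 14.4% lower in LP500 (−0.22 ± 0.10). Of the 27 fish on HK L-137, 25 lay below the CD mean and 8 below the lowest CD fish. LP100 fish 3, at 844.9 CPM, and LP500 fish 9, at 825.0 CPM, were the fish above that mean.

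slc9a3r1 was also highest in CD. MG fish had between 229.3 and 283.4 CPM (median 256.1), LP20 fish between 204.2 and 249.9 CPM (median 222.8), LP100 fish between 226.4 and 299.2 CPM (median 242.7) and LP500 fish between 125.7 and 305.6 CPM (median 205.0), against 224.0 to 386.0 CPM in CD fish (median 277.0). The diets overlapped here too, and they differed in spread, with a coefficient of variation of 6.01% in LP20 and 7.34% in MG against 24.4% in LP500 and 17.1% in CD. The means were 255.7 ± 18.8 CPM in MG, 223.4 ± 13.4 in LP20, 253.8 ± 26.1 in LP100, 225.7 ± 55.1 in LP500 and 289.2 ± 49.4 in CD (SD, n = 9 each). The order from high to low was CD, MG, LP100, LP500 and LP20, so the middle inclusion level had the highest of the 3 HK L-137 means. As a description, the fitted level was 22.8% lower than in CD in LP20 (log2 fold −0.37 ± 0.10, SE), 12.3% lower in LP100 (−0.19 ± 0.10) and 22.0% lower in LP500 (−0.36 ± 0.10). The fold in LP100 was −0.11 without CD fish 1, which had the highest level of all fish (386.0 CPM). Again 25 of the 27 fish on HK L-137 lay below the CD mean, and 10 lay below the lowest CD fish. LP100 fish 3, at 299.2 CPM, and LP500 fish 3, at 305.6 CPM, lay above it.

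**Figure D1:**
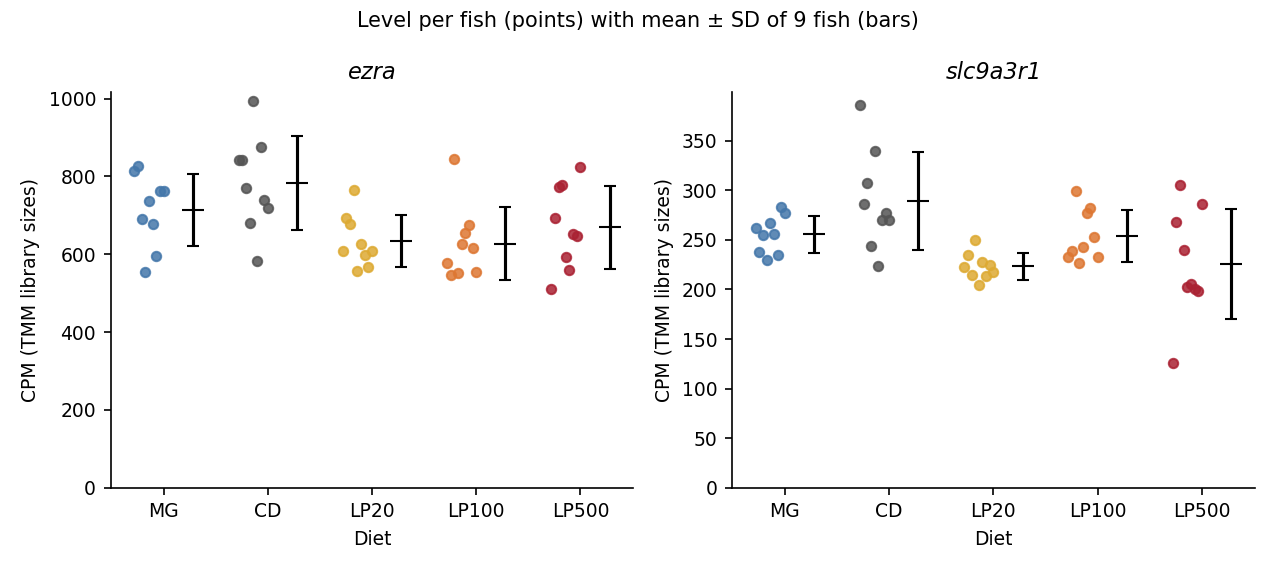
Level of ezra (left) and slc9a3r1 (right) in CPM (y axis, from 0) by diet (x axis), with a point for each fish and a bar for the mean ± SD of 9 fish. CD has the highest mean of both genes (782.7 and 289.2 CPM), all diets overlap, and the lowest point of slc9a3r1 is LP500 fish 1 at 125.7 CPM.

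LP500 fish 1 had the lowest value of both genes among all 45 fish, 510.8 CPM of ezra and 125.7 CPM of slc9a3r1. The same fish had the highest summed level of the smooth muscle markers (2690 CPM) and of the fibroblast markers (982 CPM) of the 45 fish and the lowest of the enterocyte markers (7310 CPM). Without it the log2 fold of LP500 over CD was −0.15 for ezra and −0.25 for slc9a3r1. The part that the makeup of this piece of tissue had in its values was not tested.

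In these bulk samples, fewer cells that hold a transcript and less of the transcript per cell cannot be told apart. The labels number the fish of a diet in 3 runs of 3 consecutive numbers, which may be tanks although no source says so. For ezra, the means of the runs lay between 656.1 and 777.9 CPM in MG, 591.0 and 660.3 in LP20, 611.2 and 656.9 in LP100, 643.0 and 708.0 in LP500 and 752.8 and 817.9 in CD. All 9 runs of the HK L-137 diets thus had a lower mean than each of the 3 CD runs. For slc9a3r1 they lay between 250.7 and 264.9 CPM in MG, 218.8 and 227.3 in LP20, 248.7 and 256.6 in LP100, 215.8 and 233.0 in LP500 and 269.2 and 326.2 in CD, with the same separation. The MG runs of slc9a3r1 also all lay below the CD runs, whereas those of ezra overlapped them. The separation of the HK L-137 runs from CD is the difference that chose the genes, seen at the level of runs.

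Comparisons other than each HK L-137 diet with CD were tested, although each of them uses CD or HK L-137 fish whose values chose the genes. In MG, the log2 fold over CD was −0.13 for ezra (95% interval −0.33 to 0.06) and −0.18 for slc9a3r1 (−0.38 to 0.03), with 7 and 9 of the 9 MG fish below the CD mean. Neither passed the test, with adjusted p = 0.817 and 0.747 (edgeR quasi-likelihood test, Benjamini-Hochberg adjustment over all genes). The intervals reach from a level about as low as that of the HK L-137 diets to a level slightly above CD, so MG was not shown to be the same as either.

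Between inclusion levels, ezra differed by a log2 fold of −0.01 in LP100 over LP20 (95% interval −0.21 to 0.18), 0.09 in LP500 over LP100 (−0.10 to 0.29) and 0.08 in LP500 over LP20 (−0.11 to 0.27). slc9a3r1 differed by 0.18 in LP100 over LP20 (−0.02 to 0.39), −0.17 in LP500 over LP100 (−0.37 to 0.04) and 0.02 in LP500 over LP20 (−0.19 to 0.22). None of these 6 differences passed the edgeR test, and the adjusted p were between 0.547 and 0.993. Set against MG, ezra had a log2 fold of −0.17 in LP20 (−0.37 to 0.02), −0.18 in LP100 (−0.38 to 0.01) and −0.09 in LP500 (−0.28 to 0.10). For slc9a3r1 the folds over MG were −0.19 in LP20 (−0.40 to 0.01), −0.01 in LP100 (−0.22 to 0.19) and −0.18 in LP500 (−0.38 to 0.02). These also missed the threshold, with adjusted p between 0.457 and 1.0 by edgeR. Neighbours in the order of diets were therefore not told apart for either gene.

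The choice of test mattered for slc9a3r1 in LP20, set against MG and LP100. In LP20, 7 of 9 fish lay below the lowest MG fish, and 4 of 9 LP100 fish lay above the highest LP20 fish. The exact two-sided permutation test over all 48620 splits gave p = 0.000946 for LP20 against MG and p = 0.00444 for LP100 against LP20. Both are without adjustment among the 14 tests made. Both pairs also use the LP20 fish, whose low values were among those that chose slc9a3r1, so these p are a description. The edgeR fit, which takes 1 spread from all 5 diets for each gene, gave unadjusted p = 0.0615 and 0.0765 for the same pairs. Of the 14 tests, 0 had an unadjusted p under 0.05 in edgeR and 2 in the exact permutation test. Across all genes, 0% were called in each direction in MG against CD, in the 3 pairs of inclusion levels and in each HK L-137 diet against MG by edgeR, where between 1315 and 4296 of 31729 genes had an unadjusted p under 0.05 and DESeq2 called between 0 and 128.

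The levels of ezra and slc9a3r1 moved together from fish to fish inside the diets. After the mean of its diet had been taken from each value, the log2 CPM of the genes had Pearson's r = 0.75 and Spearman's rho = 0.79 over 45 fish, each with a permutation p of 1e-05, the smallest that 100000 permutations of fish within diets can give (adjusted p = 5.7e-05 over 17 relations). Without CD fish 6 and LP100 fish 3, the fish farthest from the median of ezra, r was 0.73, and with the means of the label runs removed it was 0.78. In single diets r was 0.61 in MG (exact permutation p = 0.083), 0.76 in CD (p = 0.019), 0.77 in LP20 (p = 0.015), 0.92 in LP100 (p = 0.0002) and 0.87 in LP500 (p = 0.0017), with adjusted p of 0.083 in MG and between 0.001 and 0.024 in the other diets by exact permutation. The relation with the total count of a fish was weaker, with r = 0.12 for ezra and 0.16 for slc9a3r1 (permutation p = 0.46 and 0.24). Per kb of exon, slc9a3r1 stood at 50.4 ± 5.23% of ezra in MG, 49.3 ± 3.35% in LP20, 56.6 ± 3.33% in LP100, 46.5 ± 6.54% in LP500 and 51.6 ± 5.92% in CD (SD, n = 9 each).

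**Figure D2:**
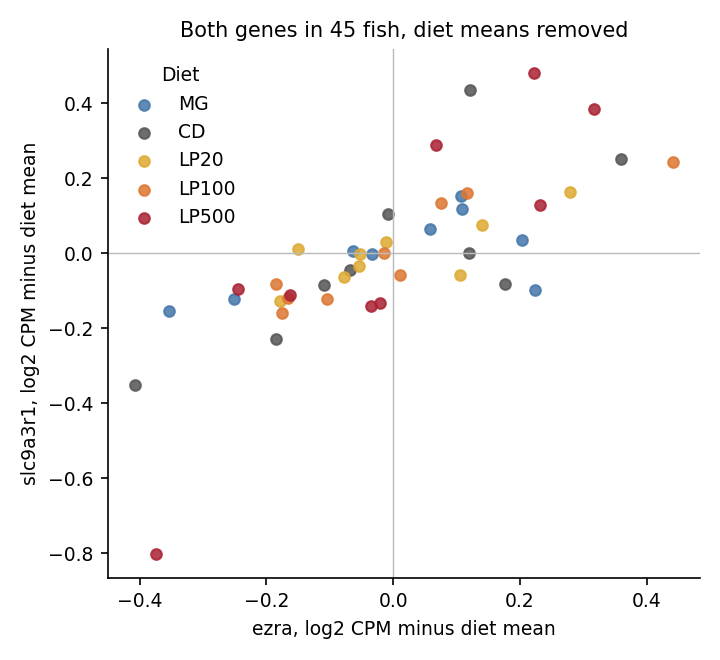
log2 CPM of slc9a3r1 (y axis) against ezra (x axis), each minus the mean of the diet, with a point for each of 45 fish coloured by diet. The points rise together (r = 0.75), and the lowest point on the y axis is LP500 fish 1.

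A correlation of this size was shared by few genes. Among the 31728 other genes tested, r with ezra had a median of −0.01 and a 99th percentile of 0.60, and slc9a3r1 was the 28th gene in order. With slc9a3r1 the median was −0.01 and the 99th percentile 0.63, and ezra was the 41st. All values of a fish share its library and its library size, so these r are given as descriptions. Of genes with a symbol, tm4sf21a, of the transmembrane 4 superfamily, was the closest to both, with r = 0.81 to ezra and 0.83 to slc9a3r1. The others closest to ezra were scel (sciellin, of the envelope of stratified epithelia in mammals) at 0.81, plecb (plectin, which ties intermediate filaments to junctions) at 0.79, pdlim1 (a PDZ and LIM protein of actin stress fibres) at 0.77 and flnba (filamin B, an actin crosslinker) at 0.76. Those closest to slc9a3r1 were baiap2l1a (an I-BAR protein that bends the membrane over actin in microvilli) at 0.82, coro1ca (coronin, which binds actin) at 0.81, anxa11a (annexin A11) at 0.79 and sdc4 (syndecan-4, a membrane proteoglycan) at 0.78.

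Of these 9 genes, plecb was the gene called against CD, lower in LP100 and LP500. Of all genes, 0.473% were called lower in LP100 and 3.21% in LP500 by edgeR, and 0% in LP20 and MG. Whether the calls of plecb held without single fish is not given here. Its median was 189 CPM in LP100 (148 to 312) and 199 CPM in LP500 (140 to 340), against 303 CPM in CD (214 to 390). Its log2 fold was −0.60 in LP100 (adjusted p = 0.036) and −0.54 in LP500 (adjusted p = 0.0327), and −0.67 in LP20, where it missed the threshold (adjusted p = 0.111, edgeR). For tm4sf21a the log2 folds over CD were −0.44 in LP20, −0.24 in LP100, −0.13 in LP500 and −0.17 in MG, with adjusted p between 0.153 and 0.842 by edgeR. For baiap2l1a they were −0.27, −0.23, −0.28 and −0.19 in the same diets, with adjusted p between 0.178 and 0.817.

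The gene most like ezra of all 31728 was the one on its other strand. ENSSSAG00000111119, which has no name in the files or the RefSeq table, is placed within ezra at 50028660 to 50040953 of chromosome 9, minus strand. Its exons, 12034 bases long, share 927 bases with those of ezra, which is 26.9% of the ezra exons. Its median level was 231.9 CPM in MG (179.9 to 298.9), 200.2 CPM in LP20 (176.4 to 260.7), 194.1 CPM in LP100 (169.6 to 269.1) and 222.9 CPM in LP500 (95.59 to 275.5), against 270.0 CPM in CD (201.8 to 332.0). Its diet means had the same order as those of ezra. Its r with ezra was 0.88 after diet means were removed (rho 0.94, permutation p = 1e-05, adjusted p = 5.7e-05 over 17 relations), 0.87 without CD fish 6 and LP100 fish 3. Its r with slc9a3r1, which lies on another chromosome, was 0.81, and 0.67 without LP500 fish 1 and LP500 fish 3.

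The count of ENSSSAG00000111119 was a nearly fixed share of that of ezra in all fish but LP500 fish 1. The share had a median of 33.4% over 45 fish and a highest value of 36.1%. It was 18.7% in LP500 fish 1 and at least 29.3% in MG, 31% in LP20, 30.8% in LP100 and 33.2% in CD. If all of its fragments fell on the 927 shared bases, their number per base would be 1.24 times that of ezra in the median fish. The gene on the other strand of slc9a3r1, LOC106612187 (81312111 to 81410572 of chromosome 1, minus strand), shares 115 exon bases with it, which is 4.64% of its exons. The counts of LOC106612187 were 5.59% of those of slc9a3r1 in the median fish, with a range of 3.55% to 13.8%. The same sum gave 1.20 times per base, with a range of 0.765 to 2.96. This share was less steady. Its highest value was in LP500 fish 1, with 217 fragments of LOC106612187 and 1577 of slc9a3r1. In the other diets the highest share was between 6.21% and 6.38%. Fragments were counted with a setting for reverse-stranded libraries, and whether the library kit kept the strand is not given in the sources used here. If it did not, fragments of ezra and of its partner on the shared bases cannot be told apart. The part of ezra in the counts of ENSSSAG00000111119 was not tested. This gene was not called against CD in any of the diets, with log2 folds of −0.36 in LP20, −0.38 in LP100, −0.31 in LP500 and −0.17 in MG (adjusted p between 0.0702 and 0.824, edgeR).

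**Figure D3:**
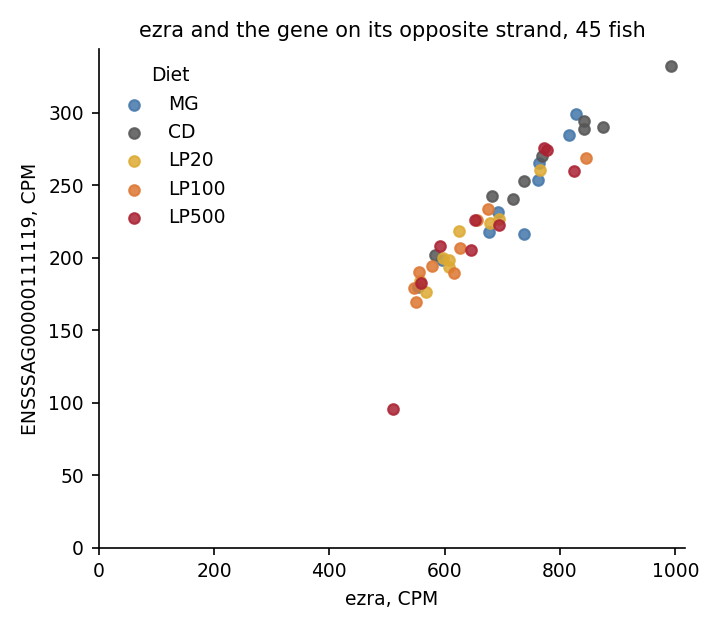
CPM of ENSSSAG00000111119 (y axis) against CPM of ezra (x axis) in 45 fish, coloured by diet, both axes from 0. The points lie near a line through the origin except LP500 fish 1, at 510.8 CPM of ezra and 95.59 CPM of its partner.

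A further gene with an ezrin symbol, ezrb (chromosome 15, plus strand, 29222202 to 29291025), was expressed at a far lower level than ezra. Ezrin genes without such a symbol were not looked for. Levels of different genes are compared per kb of exon. ezrb had 22.3 ± 4.34 CPM per kb in MG, 18.7 ± 5.37 in LP20, 19.5 ± 2.50 in LP100, 19.4 ± 2.94 in LP500 and 24.4 ± 5.14 in CD, which was between 10.1% and 10.8% of ezra in the diet means. In CPM, its log2 fold over CD was −0.39 in LP20 (adjusted p = 0.235), −0.33 in LP100 (0.221), −0.33 in LP500 (0.150) and −0.13 in MG (0.901, edgeR), so it did not pass the test. The folds of ezra in the same diets, −0.31, −0.32, −0.22 and −0.13, are given beside them without a test, and the CD fish are the same. Within diets, r of ezrb was 0.47 with ezra and 0.41 with slc9a3r1 (permutation p = 0.00019 and 0.00031, adjusted p = 0.00065 and 0.00088 over 17 relations). Further ERM relatives, nf2a and nf2b, encode merlin, which shares the FERM domain and restrains growth in mammals. They were rare, at between 1.30 and 1.62 CPM per kb for nf2a and between 0.556 and 0.686 for nf2b in the diet means, and neither was called in a diet (adjusted p between 0.258 and 0.941, edgeR). No row matched the symbols of moesin (msn) and radixin (rdx), so these genes could not be followed.

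Among the PDZ scaffolds of the brush border, pdzk1, which binds transporter tails as NHERF1 does, was at a higher level per kb than slc9a3r1. It had 187.5 ± 8.35 CPM per kb in MG, 190.1 ± 12.6 in LP20, 178.6 ± 13.7 in LP100, 179.9 ± 22.7 in LP500 and 195.3 ± 15.8 in CD, against diet means of slc9a3r1 between 90.2 and 116.8 CPM per kb. Its log2 folds over CD lay between −0.13 and −0.04, and it was not called (adjusted p between 0.226 and 0.892, edgeR). Within diets its r with slc9a3r1 was 0.66 (rho 0.49, permutation p = 0.00015 and 0.0026, adjusted p = 0.00064 and 0.0052 over 17 relations), and r fell to 0.45 without LP500 fish 1 and LP500 fish 3. nherf4a, a further scaffold of this family, was the gene of the ERM and NHERF lists that fell. It had between 40.1 and 62.5 CPM in LP500 (median 45.4), against 47.0 to 78.8 CPM in CD (median 59.3). The groups overlapped, with 6 of the 9 LP500 fish below the lowest CD fish. The log2 fold was −0.37 ± 0.08 (SE) with adjusted p = 0.00572 by edgeR, and this call was kept when any single fish of the 18 was left out. In LP20, LP100 and MG its log2 folds over CD were −0.13, −0.19 and −0.15, which were not called (adjusted p between 0.170 and 0.726, edgeR). Its r with slc9a3r1 within diets was 0.38 (permutation p = 0.045, adjusted p = 0.054 over 17 relations).

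**Figure D4:**
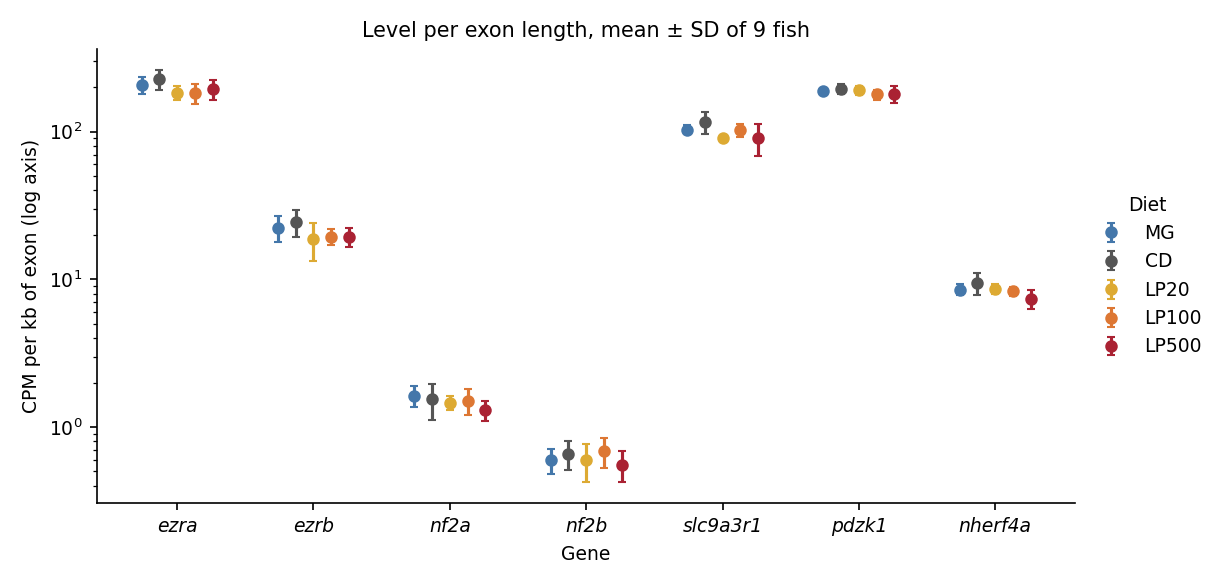
Level in CPM per kb of exon (y axis, log scale) of ezra, ezrb, nf2a, nf2b, slc9a3r1, pdzk1 and nherf4a (x axis), with a point and bar for the mean ± SD of 9 fish of each diet. The diet means of ezra (182.1 to 227.1 CPM per kb) and pdzk1 (178.6 to 195.3) are the highest and overlap. The means of the other genes lie below both in every diet.

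To place the pair among the genes they work with, 8 lists of brush border and junction genes were followed, with 60 genes matched and 55 tested besides the pair. Listed symbols without a matched row, among them cdh1, ctnnb1, slc9a3 and cftr, could not be followed. In LP500, 5 of the 55 were higher than in CD, where 7.45% of all genes were called higher, and 5 were lower, where 3.21% of all genes were called lower. In LP100, 2 were higher (3.6% of all genes) and 1 was lower (0.473% of all genes). In LP20 and in MG none was called in either direction, and 0% of all genes were called by edgeR, although 4086 and 2265 genes had an unadjusted p under 0.05 and DESeq2 called 182 and 0 genes. The median log2 fold of the 55 genes was −0.04 in LP20, −0.03 in LP100, −0.13 in LP500 and −0.09 in MG, and 34, 33, 41 and 37 of them lay below CD. Over all genes the median was between −0.01 and 0.01.

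The genes that fell in LP500 were, besides nherf4a, cdhr5b and myo7ba of the links between microvillus tips, the motor gene myo5b and the kinase gene slka. cdhr5b encodes a protocadherin of these links, and myo7ba the myosin that places them at the tip in mammals. cdhr5b had between 380 and 923 CPM in LP500 (median 662), against 667 to 1100 CPM in CD (median 827), a log2 fold of −0.35 (adjusted p = 0.0309). myo7ba had between 280 and 636 CPM in LP500 (median 466), against 446 to 747 CPM in CD (median 602), a log2 fold of −0.33 (adjusted p = 0.0428). The 5 tested genes of this list of tip links were cdhr2, cdhr5a, cdhr5b, myo7ba and myo7bb. Of these, 5 lay below CD in MG, 4 in LP20, 5 in LP100 and 5 in LP500. In LP500 2 were called and in the other diets 0. All 4 comparisons use the same CD fish, so these counts are not independent of one another. myo5b, the motor that carries vesicles to the apical membrane, had between 30.2 and 88.8 CPM in LP500 (median 63.1), against 71.4 to 109 CPM in CD (median 87.6), a log2 fold of −0.55 (adjusted p = 0.0176). In each case the ranges overlapped.

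Kinases that phosphorylate ERM proteins in mammals moved in both directions. slka, a gene of SLK, had a median of 17.2 CPM in LP100 (10.5 to 25.4) and 17.7 CPM in LP500 (7.81 to 22.3), against 24.1 CPM in CD (20.3 to 33.4). It fell in LP100 (log2 fold −0.63, adjusted p = 0.0352) and in LP500 (log2 fold −0.60, adjusted p = 0.0233), and 7 of 9 fish in each of these diets lay below all CD fish. stk10, the gene of LOK, had between 19.7 and 35.9 CPM in LP100 (median 25.2), against 16.4 to 22.8 CPM in CD (median 18.7), and rose with a log2 fold of 0.44 (adjusted p = 0.0324). In LP500 its log2 fold was 0.25 and it was not called (adjusted p = 0.187, edgeR).

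The genes that rose in LP500 were tpm1, podxl, prom1a, slc9a1b and myh14. tpm1, a tropomyosin that is also abundant in muscle, had between 97.0 and 510 CPM in LP500 (median 227), against 81.3 to 195 CPM in CD (median 101), with a log2 fold of 1.15 (adjusted p = 0.00518) and 7 of 9 fish above all CD fish. podxl encodes podocalyxin, a sialomucin of podocytes and vessels that binds NHERF proteins in mammals, and rose with a log2 fold of 0.98 (adjusted p = 0.0278). prom1a, for a membrane protein of protrusions, rose in LP100 (log2 fold 0.77, adjusted p = 0.0428) and in LP500 (0.75, adjusted p = 0.0265). slc9a1b, for the housekeeping exchanger NHE1, and myh14, for a non-muscle myosin, rose in LP500 with log2 folds of 1.31 (adjusted p = 0.0287) and 1.36 (adjusted p = 0.0204), at levels of 1.51 ± 0.897 and 0.797 ± 0.386 CPM in LP500 against 0.599 ± 0.432 and 0.307 ± 0.199 CPM in CD (SD, n = 9 each). The adjusted p values are from edgeR. The list of the actin core of microvilli held 18 symbols, and several, among them vil1, pls1, pls3, eps8, actb and actg1, had no matched row. Of this list, 8 genes were tested and 0 were called in a diet. The smallest adjusted p in LP500 by edgeR were those of baiap2l2a (log2 fold −0.19, 0.101) and baiap2l1a (−0.28, 0.178). Of the tight and adherens junction list, 15 were tested and 0 were called. Of all genes, 7.45% were called higher and 3.21% lower in LP500, 3.6% and 0.473% in LP100, and 0% in LP20 and MG. The 0 calls among these 8 and 15 genes were not shown to differ from those shares. The smallest adjusted p in LP500 by edgeR were those of cldn5a (log2 fold 1.33, 0.0687) and tjp2b (0.33, 0.0999). cldn5a was near the floor, at 1.02 ± 0.503 CPM in LP500 against 0.407 ± 0.276 CPM in CD (SD, n = 9 each).

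**Figure D5:**
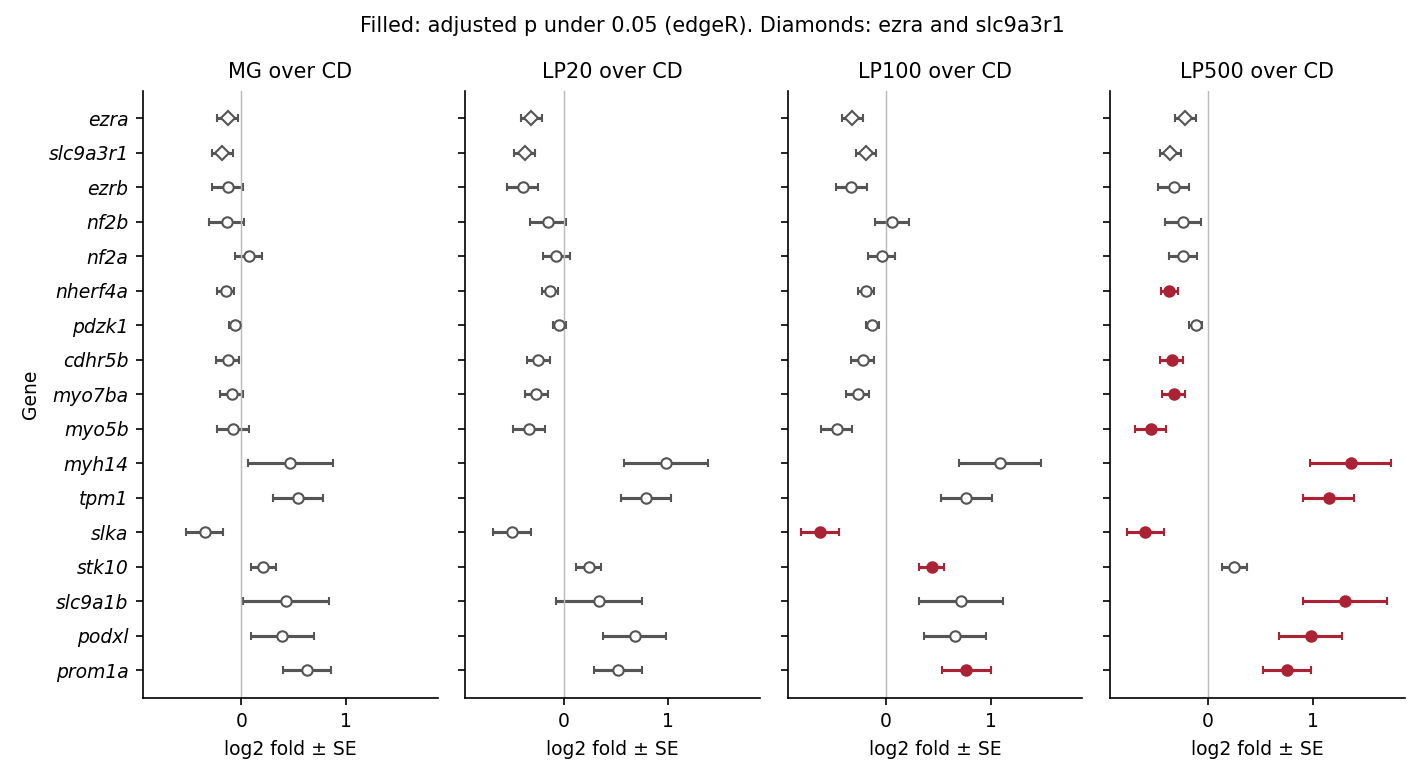
log2 fold over CD ± SE (x axis) in MG, LP20, LP100 and LP500 (panels) of ezra and slc9a3r1 (diamonds), the other tested ERM and NHERF genes and the list genes called in a diet (circles, filled where the edgeR adjusted p is under 0.05). In LP500, 5 genes are called lower and 5 higher, in LP100 1 and 2, and none in LP20 or MG.

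These calls were made on few fish and depended on them. The share of all genes called without each fish is not given here. The shifts below are thus not shown to be particular to the lists. Without LP500 fish 1, 2 genes of the lists were called higher and 1 lower in LP500, and the counts over all 18 single fish left out were between 2 and 7 higher and between 1 and 9 lower, 9 being without LP500 fish 3. Without CD fish 5 or LP500 fish 6 the higher count was 2, and without CD fish 1 the lower count was 1. In LP100 the counts were between 0 and 4 higher and between 0 and 2 lower. In LP500 the calls of nherf4a and tpm1 were lost in 0 of these 18 fits, that of myh14 in 1, myo5b in 2, slka in 3, podxl and prom1a in 5 each, slc9a1b in 6, cdhr5b in 8 and myo7ba in 15. In LP100 the call of stk10 was lost in 6 of 18 and those of slka and prom1a in 12 each, with the highest adjusted p (0.0797 to 0.114, edgeR) without LP100 fish 4.

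Markers of other layers of the gut also differed between diet means. The mean log2 level of the smooth muscle, fibroblast and endothelium lists rose in the order CD, MG, LP20, LP100 and LP500. The means of ezra and slc9a3r1 were highest in CD and next highest in MG, the diets with the lowest means of these lists. Among the HK L-137 diets, whose differences did not pass the edgeR test, neither gene fell in that order. The relation of these orders was not tested. Of the smooth muscle list (acta2, smtna, smtnb), 2 of 3 tested genes were called higher in LP500 and 0 in LP100. Of the fibroblast list 4 of 4 tested genes were called higher in both. Of the endothelium list it was 5 of 5 in LP500 and 3 of 5 in LP100, while 0 were called in LP20 or MG. Of all genes, 7.45% were called higher in LP500, 3.6% in LP100 and 0% in LP20 and MG by edgeR. These lists are not complete. Many of their symbols, among them tagln, myh11, col1a2, col3a1, dcn, cdh5 and kdr, had no matched row and could not be followed. The summed level of the fibroblast list was between 78.1 and 549 CPM in MG, 56.8 and 595 in LP20, 55.9 and 491 in LP100, 67.3 and 982 in LP500 and 44.6 and 293 in CD. For smooth muscle it was between 342 and 1520 CPM in MG, 308 and 1170 in LP20, 343 and 1080 in LP100, 382 and 2690 in LP500 and 280 and 757 in CD. For endothelium it was between 5.27 and 30.4 CPM in MG, 5.65 and 40.2 in LP20, 5.44 and 44.2 in LP100, 6.58 and 43 in LP500 and 4.24 and 17.1 in CD. The enterocyte list had 0 of 10 genes called in a diet, where 0.473% of all genes were called lower in LP100 and 3.21% in LP500. So few genes cannot tell 0 calls from those shares. Its sum was between 8280 and 11900 CPM in MG, 8690 and 16600 in LP20 and 7570 and 11600 in LP100. In LP500 it was between 7310 and 11100 CPM, and in CD between 7860 and 11900. Transcripts of absorptive cells were thus abundant in every fish. The median sum was 9160 CPM in MG, 10100 in LP20, 9050 in LP100, 8650 in LP500 and 9850 in CD. Its mean log2 level, relative to all fish, was lowest in LP500 (−0.13 ± 0.33, against 0.05 ± 0.17 in CD, SD). Of the other lists, 1 of 4 epithelium genes was called higher in LP100 and in LP500, and in LP500 also 1 of 3 neuron genes and the 1 erythrocyte gene. Of the goblet, enteroendocrine, T cell, B cell and macrophage genes tested, 0 were called in a diet, marco of the macrophage list had no fragment in any fish, and the 1 matched pancreas gene did not pass the filter on low counts.

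Both genes ran against these markers from fish to fish. Within diets, r of ezra was −0.45 with the mean level of the smooth muscle list, −0.47 with fibroblast and −0.46 with endothelium, and r of slc9a3r1 was −0.48, −0.49 and −0.41 (permutation p between 0.0012 and 0.0035, adjusted p between 0.0028 and 0.0049 over 17 relations). Spearman's rho lay between −0.48 and −0.38. Without its 2 farthest fish ezra kept r between −0.54 and −0.50, whereas r of slc9a3r1 was −0.25, −0.33 and −0.31 without LP500 fish 1 and LP500 fish 3. With the enterocyte list r was 0.19 for ezra (permutation p = 0.20) and 0.32 for slc9a3r1 (p = 0.034), and the second was 0.11 without the same fish. When the difference of the smooth muscle and enterocyte scores of each fish was added to the fit, the log2 folds of ezra over CD were −0.24 in LP20, −0.22 in LP100, −0.11 in LP500 and −0.09 in MG. Those of slc9a3r1 were −0.29 in LP20, −0.06 in LP100, −0.22 in LP500 and −0.11 in MG. In the same fit none of the called list genes passed the edgeR test, with adjusted p between 0.400 and 0.720, while every fold kept its sign. How many of all genes were called in that fit is not given here. In LP500 the log2 fold over CD was −0.28 for nherf4a, −0.33 for slka and 0.90 for myh14 with this term, and −0.20 for myo5b, −0.12 for cdhr5b, −0.09 for myo7ba and 0.35 for tpm1. In LP100 it was −0.41 for slka, 0.32 for stk10 and 0.50 for prom1a. The part of the tissue makeup in the lower level of ezra and slc9a3r1 was not tested beyond these values.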

How the data were processed

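RNA of the distal intestine was sequenced by the authors as read pairs, processed with nf-core rnaseq on the assembly Ssal_v3.1 and counted with featureCounts (v1.5.1 per the file headers, in which the path names subread 2.0.0 and the library is set as reverse-stranded) for each Ensembl gene. The deposited values are raw counts per gene, not normalized, with the exon length of each gene. The labels give another RNA extraction kit than the methods of the paper. Diets were taken from the labels of each fish, and doses from the methods. Genes took the symbol of the RefSeq protein-coding gene with at least 0.5 of the joint span in common (30322 genes matched, 8775 with a symbol other than LOC). Sequences of the genes, planned for promoter and protein comparisons, were not used here.

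With R v4.3.3, edgeR v4.0.16 was run on the counts of all 45 fish, with its filter on low counts (31729 genes), TMM, a quasi-likelihood fit with diet as factor and Benjamini-Hochberg adjustment over all genes, and calls at an adjusted p under 0.05. The test was tested on simulated data. The simulated fish were drawn independently, with no effect of tanks, and the outcome is not given here. Intervals are 95%. Correlations used log2 CPM with a prior count of 2. Each diet against CD, the inclusion levels among themselves and against MG were compared. Any 2 fish differed by more than sampling noise (smallest chi-square per gene 8.01).

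The 8 gene lists and 13 marker lists (enterocyte, epithelium, goblet, enteroendocrine, neuron, smooth muscle, fibroblast, endothelium, T cell, B cell, macrophage, erythrocyte, pancreas) were written by hand and matched by symbol. ezra, slc9a3r1, the lists and the tests were chosen with earlier results of these data known. The genes named are the pair, genes sharing their exons, the ERM and NHERF rows tested, list genes called in a diet (or the 2 with the smallest p in LP500) and the 5 with a symbol most like each of the pair. A further rule, on protein identity, was not applied. Alternatives were DESeq2 v1.42.0, RLE size factors, no filter, counts summed per label run, the 18 fish compared alone, a marker covariate, leaving out each label run, exact permutation, and, chosen after seeing the data, leaving out each fish.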

Additional observations from a re-analysis of the deposited data

Results flagged for a closer look

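Of 20 sets of 9 fish (ezra, slc9a3r1, ezrb and ENSSSAG00000111119 in each diet), 2 held a fish far from the rest, with a gap to its neighbour above the 95% critical value of Dixon's test for 9 values, and chance gives about 1 such set in 20. ezra was at 844.9 CPM in LP100 fish 3, where the other LP100 fish had between 547.3 and 674.8 CPM (gap 0.571 of the range). The slc9a3r1 level of the same fish, 299.2 CPM, was the highest of LP100. ezrb was at 26.32 CPM in LP20 fish 5, where the other LP20 fish had between 68.33 and 100.1 CPM (gap 0.57 of the range), and that fish also had the lowest LP20 levels of ezra (557.4 CPM) and slc9a3r1 (204.2 CPM). The causes were not tested.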

How the results depend on the processing

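Of 434 alternative tests of ezra and slc9a3r1 outside the contrasts that chose them, 2 passed 0.05, both by exact permutation without adjustment. They were slc9a3r1 in LP100 over LP20 (log2 fold 0.18, exact permutation p = 0.00444) and in LP20 over MG (−0.19, p = 0.000946). Both use the LP20 fish, whose values were among those that chose the genes. With the smooth muscle minus enterocyte covariate the sign turned for ezra in LP100 over LP20 (0.02) and slc9a3r1 in LP100 over MG (0.05). Leaving out 1 fish or 1 label run gave between −0.07 and 0.03 for ezra in LP100 over LP20, between −0.04 and 0.02 for slc9a3r1 in LP100 over MG and between −0.04 and 0.11 in LP500 over LP20. As a description of the contrast that chose the genes, the folds of both over CD in the HK L-137 diets stayed negative. For slc9a3r1 they were between −0.43 and −0.28 in LP20 without a label run, and in LP100 (−0.19) between −0.22 and −0.11 without a fish, −0.09 without the CD label run of fish 1 to 3 and −0.06 with the covariate. For ezra in LP500 (−0.22) the fold was −0.11 with the covariate. The correlation of the pair was between 0.73 and 0.78 without any 1 fish. Counts of list genes called higher and lower in LP500 (5 and 5) were 0 and 0 with the covariate, 3 and 3 on sums per label run and 2 and 3 on the 18 fish alone. In LP100 (2 and 1) they were 0 and 0 with the covariate and on the sums, 4 and 3 on the 18 fish alone, 1 higher without the filter and 2 lower with DESeq2. Without 1 fish or label run they were between 0 and 7 higher and 0 and 9 lower in LP500, between 0 and 4 higher and 0 and 2 lower in LP100, and between 0 and 1 in either direction in LP20. The share of all genes called in each of these fits is not given. The shifts in these counts are thus not shown to be particular to the lists. The causes of these shifts were not tested. Several of these fits used fewer fish, and the covariate overlapped with diet. No paired analysis was possible because fish of different diets carry unrelated label numbers and the replicate numbers used here follow the order of accession. Differences within the intervals given were not excluded with 9 fish a diet.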
